A study of Mus musculus with 5 samples.

Results

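Mesothelin (gene symbol Msln) was 1 of the 14454 genes measured, and it was singled out because its expression differed most between the groups. RNA had been sequenced from 5 NIH/3T3 lines (NIH/3T3 is an immortalised fibroblast from mouse embryos). All 5 had human H2A, a core histone, integrated as a fusion with EGFP and grew in DMEM with 10% fetal calf serum and 10 µg/ml gentamicin. In 4 lines, numbered 3, 6, 15 and 18, the histone had the T120D substitution, an aspartate in place of a threonine, and in 1 line (wt) it was wild type. The labels do not say whether a line was 1 clone or which promoter drove the transgene, and the wt group had no replicate. A trait of that 1 wt line and an effect of the substitution therefore cannot be told apart. Expression was given as RPKM, the reads of a gene scaled to the length of its transcript and to the mapped reads of the library.

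Mesothelin is a glycoprotein held on the cell surface by a glycosylphosphatidylinositol (GPI) lipid anchor. It is made as a precursor that the convertase furin cuts into a secreted part, megakaryocyte potentiating factor, and the anchored part, which binds the mucin MUC16 and can be shed by proteases. In the healthy body it is known from mesothelial cells, the lining of pleura, pericardium and peritoneum. It is abundant in mesothelioma and in many ovarian and pancreatic cancers, and has been described in activated portal fibroblasts of the liver.

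Msln lies on the minus strand of chromosome 17 in the GENCODE M21 annotation of GRCm38, where 0 other genes overlap it. The deposited values were made on mm9, so no coordinates are given. The annotation holds 4 full-length coding transcripts of 2044 to 2165 bases with 16 or 17 exons. Their coding sequences come in 2 forms that differ by 12 bases at the start of coding exon 4. The stretch is shown because the deposited table has 1 value per gene and cannot tell these forms apart. It is printed 5′ to 3′ from the transcript sequences, with 24 bases on each side, and capitals mark the 12 bases, which transcripts Msln-201 and Msln-205 have and Msln-207 and Msln-208 lack.
Msln-201: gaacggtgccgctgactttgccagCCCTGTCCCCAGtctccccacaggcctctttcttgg
Msln-208: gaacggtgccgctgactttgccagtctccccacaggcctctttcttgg
Of the 2206 different 50-base windows in these transcripts, 0 occur on either strand in the annotated transcripts of another gene. Msln therefore shares no exact stretch of that length with another annotated gene. Copies that differ by scattered bases were not searched for.

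Msln RNA was abundant in every T120D line and scarce in the wt line. T120D lines 3, 6, 15 and 18 had 93.5, 54.6, 76.2 and 111 RPKM, respectively, and wt had 1.56. Line 18 was the highest and line 6 the lowest of the T120D lines, and all 4 lay far above wt. The T120D mean was 83.9 ± 24.2 RPKM (SD, n = 4), 53.8 times the wt value. The ratios to wt were 59.9, 35.0, 48.8 and 71.3 for lines 3, 6, 15 and 18. On the log2(RPKM + 1) scale, which understates changes of weakly expressed genes, the difference was 5.0. The RPKM values of these same 5 lines chose Msln, so its difference, order and spread are described without a test. In RNA from whole cultures, a change in the share of cells expressing Msln and one in the RNA per cell cannot be told apart.

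**Figure D1:**
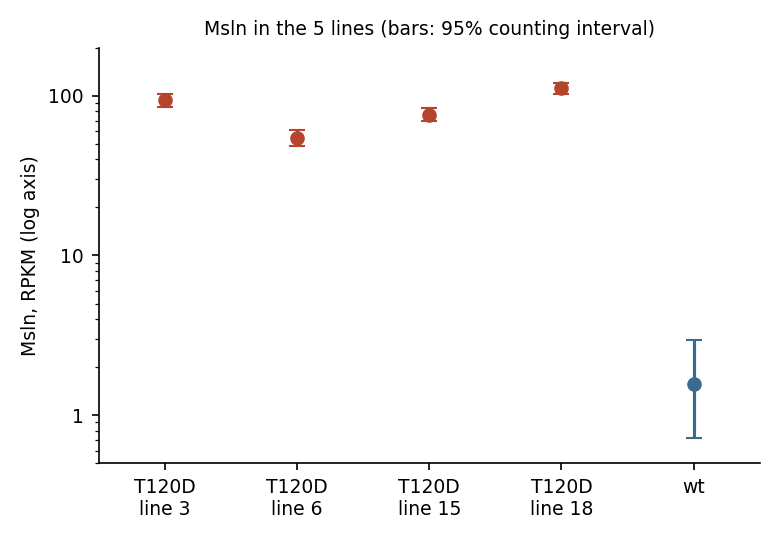
Msln expression in RPKM, on a log axis, for each of the 5 lines. Points are the deposited values and bars the 95% Poisson counting interval of the estimated reads. The T120D lines lie between 54.6 and 111 RPKM and the wt line at 1.56.

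The wt value rests on few reads. The depth was estimated at 2528140 to 2725750 mapped reads per line, as the depth that brought the largest share of low values near whole reads. Only 47.8% to 52.7% of the values below 20 reads did (within 0.05 reads, chance 10%), so reads per gene are estimates. With the 2114 bases of Msln-201, the Msln values correspond to about 500, 313, 429 and 619 reads for lines 3, 6, 15 and 18 and to 9 for wt. The other 3 full-length transcripts place the wt value at 8.69 to 9.21 reads. The 95% Poisson interval around the 9 wt reads runs from 0.714 to 2.96 RPKM. At those limits the T120D mean is 117 or 28.3 times the wt level. These intervals cover counting error only, and reads are not independent molecules after PCR.

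Msln was a weakly expressed gene in wt and among the most abundant in T120D. In wt it ranked 9533 of 14454 genes by RPKM, with 34.0% of genes below it. Its ranks in lines 3, 6, 15 and 18 were 218, 427, 282 and 170, above at least 97.0% of genes in each. Genes averaging 1 RPKM or more across all lines, 10052 in number, are called tested below, and among these its log2 difference was the highest. It was followed by Ctgf, a matricellular growth factor gene, at 3.64. With a pseudocount of 0.5 or 5 RPKM Msln also ranked 1, at 5.31 and 3.72. With 0.1 RPKM it was at 5.61 and ranked 2, behind Klra18, a receptor gene of natural killer cells that is listed near 0 in wt. Over all tested genes the median difference was -0.02.

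**Figure D2:**
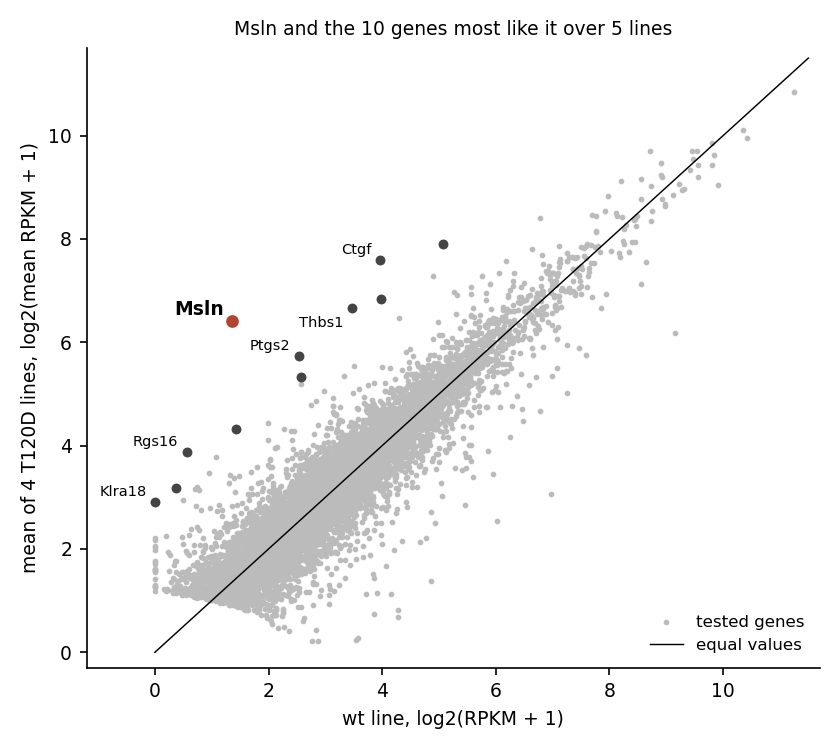
Each grey point is 1 of the 10052 tested genes, with its wt value on the x axis and the mean of the 4 T120D lines on the y axis, both as log2(RPKM + 1). Msln (red) lies farthest from the line of equal values on the upper side. Black points are the 10 genes most like it over the 5 lines, of which the nearest 5 are labelled.

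The T120D lines ran from 54.6 to 111 RPKM in Msln. The 95% counting intervals spanned 85.5 to 102 RPKM for line 3 and 48.8 to 61.1 for line 6, while line 15 reached from 69.2 to 83.8 and line 18 from 103 to 120.3. No pair of these intervals overlaps. They leave out the variation between libraries and cultures, so they do not show that neighbours in the order 18, 3, 15, 6 differ. Line 18 had 2.04 times the level of line 6. The coefficient of variation over the 4 lines was 28.8%, while counting alone gives 4.02% to 5.65% per line. With 1 library per line, differences between libraries and between lines cannot be told apart.

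This spread was large for a gene of this level. The SD of log2(RPKM + 1) over the T120D lines was 0.44 for Msln. Among the 531 other tested genes with a T120D mean from 41.9 to 168 RPKM, 0.5 to 2 times that of Msln, the median SD was 0.10. Msln exceeded 99.4% of them. The 3 genes with a larger SD, named after their values were seen, were Rpl39, a ribosomal protein gene, Prl2c3, a proliferin gene, and Aqp1, a water channel gene. In those 3 genes line 6 was the highest T120D line, at 99.3, 104 and 214 RPKM, whereas for Msln it was the lowest.

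**Figure D3:**
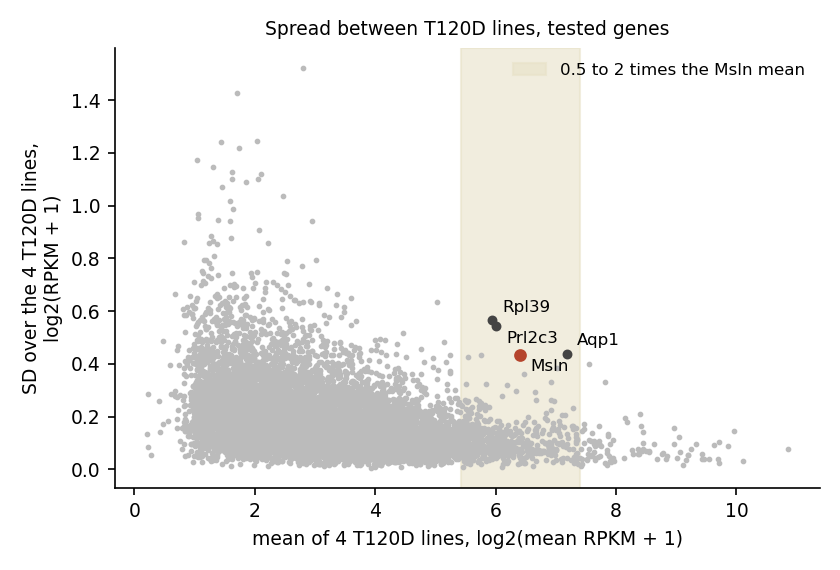
Spread between the 4 T120D lines (SD of log2(RPKM + 1), y axis) against the T120D mean (log2 scale, x axis) for the tested genes. In the shaded band, 0.5 to 2 times the Msln mean, Msln has an SD of 0.44 and only Rpl39, Prl2c3 and Aqp1 lie above it.

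The order of the T120D lines seen in Msln was not rare. Of the 10052 tested genes, 433 (4.31%), Msln among them, ran 18, 3, 15, 6 from high to low. The shares of the 24 possible orders ran from 3.33% to 5.14%, and this one was the 11th most frequent. Likeness was measured as the root mean square difference of log2(RPKM + 1) values centred over the 4 T120D lines. The 10 most similar genes of the same order were Smim11, Polb, Hoxa4, Tgif2, Pms1, Tmub1, 2500004C02Rik, Ccdc132, Stx18 and Kctd11, at 0.05 to 0.10. Their T120D means were only 1.41 to 5.91 RPKM, against 83.9 for Msln, so each line's value rests on few reads. Against wt, 0 of the 10 were called by limma at an adjusted p under 0.05, 0 at an unadjusted p under 0.05 and 0 without the intensity trend. The likeness rule picks genes that vary between the T120D lines as Msln does, here with an SD of 0.33 to 0.45. Limma takes its error from the same 4 lines, so this choice of genes makes calls less likely. Nothing is therefore read from 0 of 10. Without line 6, Tgif2 was called higher (log2 difference 0.91, limma adjusted p = 0.047). Over all tested genes 13.1% were called, 7.65% higher and 5.45% lower in T120D.

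Requiring a T120D mean of at least 20 RPKM, a limit chosen after seeing that list, left 70 genes of this order. The nearest was Cd151, a tetraspanin gene of adhesion complexes. Lines 3, 6, 15 and 18 had 38.8, 25.3, 34.7 and 43.4 RPKM of it, and wt had 22.2. Its line 18 value was 1.71 times that of line 6, a narrower range than for Msln. It was not called with all lines (log2 difference 0.63, limma adjusted p = 0.117) but was without line 6 (0.78, limma adjusted p = 0.011). Dusp1, a phosphatase gene of MAPK signalling, was at 31.4, 23.6, 28.8 and 42.4 RPKM in lines 3, 6, 15 and 18 and at 10.2 in wt. Gsto1, a glutathione transferase gene, was at 135, 95.7, 124 and 146 RPKM in the same lines and 37.6 in wt. The other 7 were Coa3, Emc7, Podnl1, Hsd17b10, Ltbr, Cd109 and Ikbip, with root mean square differences up to 0.22. Of these 10 genes, Dusp1, Gsto1, Podnl1 and Cd109 were called higher in T120D by limma, with ratios of mean RPKM to wt of 2.98 to 3.33. Higher calls made up 7.65% of all tested genes. With no filter on low values Dusp1 was no longer called (limma adjusted p = 0.0738). As the limit followed the data, nothing is read from that count. Line 6 is lowest in every gene of this order, so leaving it out raises the T120D mean. The Cd151 call without line 6 is likewise not read as a result.

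**Figure D4:**
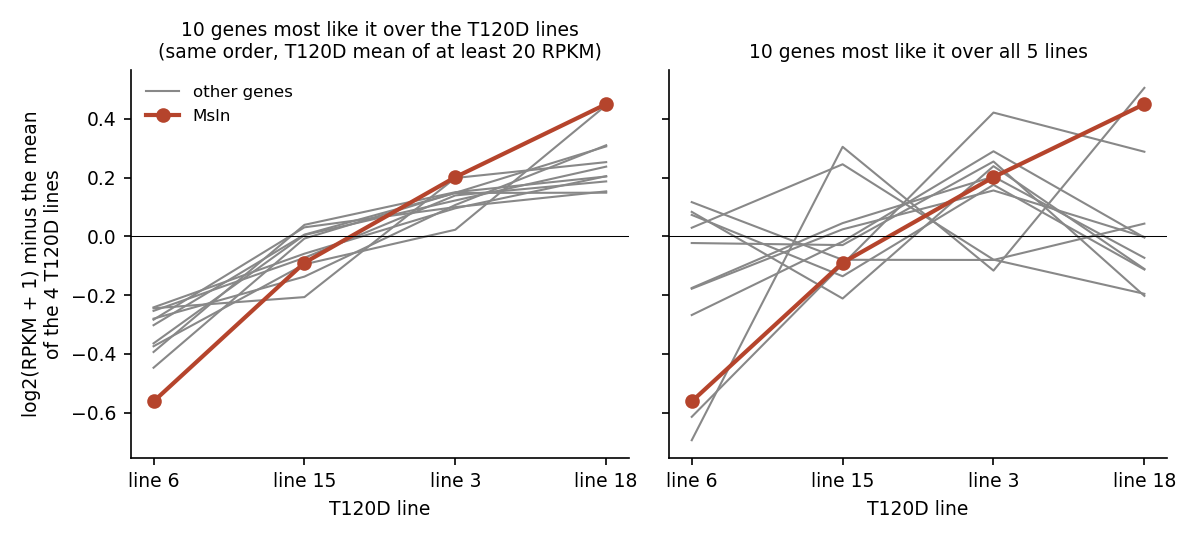
Values of Msln (red) and of 2 sets of 10 genes (grey) in the 4 T120D lines, as log2(RPKM + 1) minus each gene's mean over those lines. Left, genes of the same order with a T120D mean of at least 20 RPKM rise from line 6 to line 18 with a narrower range than Msln. Right, of the 10 genes most like Msln over all 5 lines, 0 have its order, against 4.31% of all tested genes.

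Over all 5 lines the distance from wt dominates, and other genes came closest. By the same measure centred over 5 lines, the 10 most similar genes lay at 0.61 to 0.95 and included Ctgf, Rgs16, Ptgs2, Thbs1, Klra18, Gsto2, Gprc5a, Inhba and Sdpr. All 10 were higher in every T120D line than in wt, which the measure selects for. They shared no gene with either T120D list, as those lists hold only genes of the Msln order over the T120D lines. None of the 10 had this order, which 4.31% of all tested genes have, so 0 of 10 does not set them apart. Line 6 was lowest for 5 of them and line 18 highest for 1, Klra18, and nothing is read from these counts. Ctgf, for example, had 214, 169, 195 and 191 RPKM in lines 3, 6, 15 and 18 and 14.5 in wt. Its highest T120D value was 1.26 times its lowest, against 2.04 for Msln. Gsto2, a second glutathione transferase gene, came closer to the Msln spread, at 10.6, 4.67, 7.13 and 9.61 RPKM in lines 3, 6, 15 and 18 and 0.290 in wt.

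Of Msln's relatives and the genes that process its protein, 5 were tested and 0 were called. Mslnl, the mesothelin-like gene next to it, was listed at 0 in T120D lines 3 and 15 and in wt, and at 0.281 and 0.144 RPKM in lines 6 and 18. Strc and Otoa, related genes of the inner ear, had at most 0.0659 RPKM in any line, and Muc16 was not analysed here. Furin averaged 12.3 ± 1.20 RPKM (SD, n = 4) over the T120D lines, against 11 for wt, and the groups overlapped (log2 difference 0.14, SE 0.16, limma adjusted p = 0.615). Among the proteases described as shedding mesothelin, Adam10 and Adam17 were, like Bace1, lower than wt in all 4 T120D lines. Their differences were -0.19 and -0.22. Bace1 was lower in all 4 T120D lines, at 5.94 ± 0.309 RPKM against 9.18, with a difference of -0.55 (SE 0.17) that missed the threshold (limma adjusted p = 0.063). The convertase gene Pcsk7 was at 3.70 ± 0.855 RPKM against 3.27. Of the 5 tested genes of this list, limma called 0 with the intensity trend and 0 without it, and 1 had an unadjusted p under 0.05. With 13.1% of all tested genes called, 0 of 5 does not set the list apart.

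GPI anchors are built in the endoplasmic reticulum and attached to the protein by a transamidase. Of 28 tested genes for these steps, 1 was called higher and 0 lower (3.57%, against 13.1% of all tested genes), with a median difference of -0.06. The called gene was Piga, a subunit of the enzyme of the first step. T120D lines 3, 6, 15 and 18 had 12.7, 10.6, 12.5 and 13.7 RPKM and wt 3.06, so the groups did not overlap. Its log2 difference was 1.71 (SE 0.17, limma adjusted p = 0.000497). Without line 6, Pign was called lower (log2 difference -0.68, limma adjusted p = 0.0366).

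Other genes of GPI-anchored surface proteins were called in both directions. Of 21 tested, 5 were higher and 3 lower (38.1% called, against 13.1% of all tested genes), and the median difference was 0.10. Plaur, which encodes the urokinase receptor, averaged 32.3 ± 5.05 RPKM (SD, n = 4) against 6.83, and Efna5, an ephrin gene, at 5.62 ± 1.94 against 1.13. Thy1, a fibroblast surface antigen gene, was at 55.0 ± 7.26 RPKM against 20.3. Their log2 differences were 2.08, 1.59 and 1.39 (limma adjusted p = 0.00023, 0.0185 and 0.000911). Ly6a, a stem cell antigen gene, was at 9.89 ± 2.06 RPKM against 61.1, Gas1, a growth arrest gene, at 21.2 ± 2.16 against 88.2 and Gfra2, a neurotrophic factor receptor gene, at 2.51 ± 0.967 against 10.6. Their differences were -2.53, -2.01 and -1.76 (limma adjusted p = 0.0003, 0.000107 and 0.00865). The remaining called genes, Rgmb and Ncam1, were higher. With no filter on low values, Efna5 and Gfra2 were no longer called (limma adjusted p = 0.116 and 0.0746). By level, RPKM being per length, only the prion protein gene Prnp among 32 listed genes with values lay above Msln in each T120D line, while 18 did in wt.

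Several listed markers of mesothelial cells were at or near 0 in all lines, while others were expressed. Of the 22 listed, 11 had values, and 6 of these stayed under 1 RPKM in all 5 lines. Upk3b, Upk1b, Lrrn4 and Krt7 were listed at 0 in wt and had at most 0.239 RPKM in any T120D line, and Bnc1 had at most 0.236 in any line. Wt1, Calb2, Krt8, Krt18 and Krt19 were not analysed here. The 5 tested markers were Efemp1, Pdpn, Slpi, Tbx18 and Gata4. They are also expressed by other cells, and how specific the markers near 0 are was not weighed. Pdpn, Tbx18 and Gata4 averaged 16.8, 4.70 and 2.63 RPKM over the T120D lines, against 14.9, 5.72 and 2.59 in wt. Limma called 0 of the 5 with or without the trend, 1 having an unadjusted p under 0.05. With 13.1% of all tested genes called, 0 of 5 does not set these markers apart. The gene with the low unadjusted p was Slpi, a protease inhibitor gene, at 4.66 ± 2.20 RPKM against 13.8 (log2 difference -1.49, limma adjusted p = 0.0696). It was called lower without line 15 or without line 18 (limma adjusted p = 0.0168 and 0.0491). Summed over the 11 markers, RPKM lay between 165 and 184 across the T120D lines and was 202 in wt, most of it from Efemp1 (144.5 ± 4.53 RPKM against 163.6). Of 8 epithelial markers with values, none exceeded 0.508 RPKM in any line.

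The lines expressed most of the listed markers of fibroblasts, the labelled cell type, many of them at a lower level in T120D. Col1a1, Col1a2, Vim and Fn1 were at 119.5 RPKM or more in every line. Of 12 tested fibroblast markers, 1 was higher and 8 lower (75.0% called, against 13.1% of all tested genes), with a median difference of -0.79. Pdgfra, which encodes a growth factor receptor, averaged 12.7 ± 1.72 RPKM (SD, n = 4) against 43.5 and Fn1, the fibronectin gene, at 140 ± 15.2 against 376. Their log2 differences were -1.71 and -1.43 (limma adjusted p = 0.000444 and 0.0003). Col3a1, a collagen gene, had a difference of -1.52 and Dcn and Postn, matrix protein genes, of -1.21 and -1.41. Postn was weakly expressed, at 1.04 ± 0.602 RPKM against 4.25. Lum, which was not tested, had 0, 0.178, 0.362 and 0.183 RPKM in lines 3, 6, 15 and 18 and 3.89 in wt. The higher gene was Thy1. The count fell to 5 without line 3 or without line 18, where the calls of Dcn (limma adjusted p = 0.0822 and 0.0791), Postn (0.0682 and 0.0519), Col1a2 (0.0568 and 0.0542) and S100a4 (0.0673 and 0.0648) ended. Whether these changes have a part in the Msln difference was not tested. Of the portal fibroblast markers 6 had values and 3 were tested, with 1 called higher and 1 lower (66.7%, against 13.1% of all tested genes). Eln was listed at 0 in all 5 lines, and Upk1b and Grem1 had at most 0.224 and 0.229 RPKM in any line. Thy1 was called higher, Cd34 lower (59.1 ± 8.17 RPKM against 113; log2 difference -0.93, limma adjusted p = 0.00587, and 0.0625 with no filter on low values), and Fbln2 was not called.

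In human cancer cells, expression of the mesothelin gene has been tied to a promoter element bound by TEAD factors, whose coactivators are YAP and TAZ. Tead1, Tead2, Tead3 and Tead4 had log2 differences of 0.29, -0.21, -0.04 and 0.51, and Yap1 and Wwtr1, which encodes TAZ, of -0.18 and -0.24. None of the 6 was called, the smallest limma adjusted p being that of Tead4 (0.0603). Tead4, higher in all 4 T120D lines, was called when no filter was applied (0.0443), with the filter raised to 5 RPKM (0.0454) and after quantile normalization (0.0489). The list as a whole also holds other cofactor genes and target genes. Of its 22 tested genes, 10 were higher and 1 lower (50% called, against 13.1% of all tested genes), with a median of 0.40. Vgll3, a TEAD cofactor gene, was among those called higher, at 18.1 ± 1.02 RPKM against 8.15 (log2 difference 1.06). Vgll4 was not called. Next to Ctgf, Cyr61, a matricellular gene, was at 154 ± 25.7 RPKM against 28.6 and Crim1 at 26.5 ± 1.92 against 5.75 (limma adjusted p = 0.000108 and 8.34e-05). Lats2, a kinase gene of the Hippo pathway, had 15.8, 9.60, 14.3 and 14.9 RPKM in lines 3, 6, 15 and 18 and 4.95 in wt (limma adjusted p = 0.00994, and 0.0809 with no filter). Nuak2, counted as higher (log2 difference 0.87), was no longer called with no filter, without the trend, or on leaving out line 3 or line 15. The lower gene was Tgfb2, a growth factor gene (log2 difference -1.50). Msln was chosen from the same contrast, and the list with earlier results of these data known. The shared direction is therefore no independent support for a link.

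The mouse gene has also been described as responding to a Wnt ligand in a mammary cell line. Of 20 Wnt response genes, 11 had values and 6 were tested, with 2 called higher and 1 lower (50%, against 13.1% of all tested genes) and a median difference of 0.35. This list too was chosen with earlier results of these data known, and Msln from the same contrast. Its share of calls, which rests on 6 genes, is therefore no independent support for a link. Axin2, a general reporter of the pathway, had at most 0.176 RPKM in any line, and Notum and Dkk1 were listed at 0 in all 5. Apcdd1, an inhibitor of the pathway, was at 7.31 ± 1.16 RPKM (SD, n = 4) against 2.10 and Ccnd1, the cyclin D1 gene, at 121 ± 13.3 against 46.5, while Wisp2, a matricellular gene, was at 26 ± 3.78 against 66.1. Their log2 differences were 1.41, 1.36 and -1.33 (limma adjusted p = 0.00396, 0.000381 and 0.00169).

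**Figure D5:**
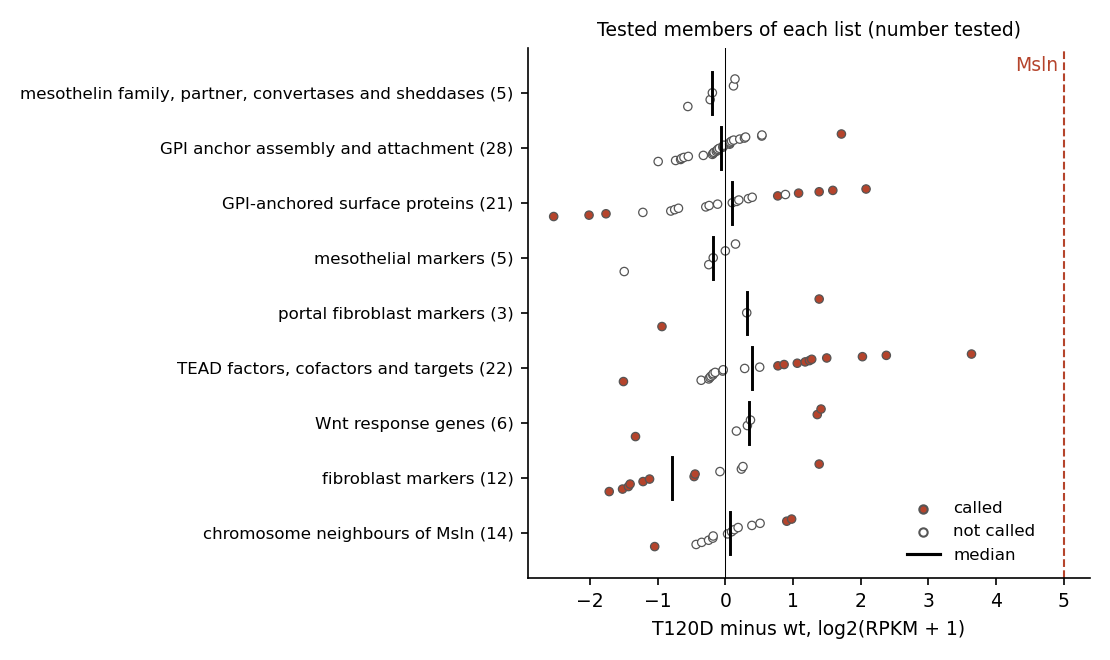
Difference between the T120D mean and wt, in log2(RPKM + 1), for the tested members of each gene list. Filled points were called by limma at an adjusted p under 0.05, bars are list medians, and the dashed line marks Msln at 5.0. The medians of the chromosome neighbours (0.06) and the anchor assembly genes (-0.06) lie near 0, with Piga at 1.71.

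Genes beside Msln on chromosome 17 showed no comparable difference. The 10 nearest genes with values on each side were examined, and 14 of these 20 were tested. Of the 14, 2 were called higher and 1 lower (21.4%, against 13.1% of all tested genes), with a median difference of 0.06. The direct neighbours were Mslnl, at most 0.281 RPKM in any line, and Narfl, an iron-sulfur protein assembly gene, at 5.33 ± 0.769 RPKM (SD, n = 4) against 4.90. Chtf18, which acts at replication forks, was at 7.60 ± 1.44 RPKM against 3.54, and Metrn, which encodes the secreted protein meteorin, at 32.1 ± 5.37 against 15.6. Fam173a, a methyltransferase gene, was at 7.11 ± 1.30 RPKM against 15.5. Their log2 differences were 0.91, 0.98 and -1.04 (limma adjusted p = 0.0278, 0.0144 and 0.0129). With no filter on low values all 3 calls ended (limma adjusted p = 0.101, 0.098 and 0.0706). No tested neighbour had a difference above 0.98, against 5.0 for Msln.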

How the data were processed

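The authors deposited 1 table of RPKM values per line for 14454 gene symbols. Partek and mm9 are named in the submitters' processing notes. For the aligner, the annotation and the use of strand, the entry is: not given in the sources used here. Per the labels, libraries were made with a stranded TruSeq kit from ISOGEN II RNA and sequenced on a MiSeq. Summed RPKM per line lay between 158614 and 160825. Depth was estimated from 1648 single-transcript genes (GENCODE M21): of their values below 20 reads, 47.8% to 52.7% lay less than 0.05 reads from an integer (chance 10%), so whole reads were not recovered and no count model was used.

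Values were analysed as log2(RPKM + 1). Genes averaging 1 RPKM or more were fitted with limma 3.58.1 (R 4.3.3; two-sided moderated test with intensity trend, Benjamini-Hochberg), T120D minus wt, and called at an adjusted p under 0.05. The spread comes from the T120D lines (3 residual and 5.99 prior degrees of freedom), and the wt line is assumed to vary like them. The labels name no separate cultures, so this spread mixes variation between lines, cultures and libraries. The p-values set the difference from the 1 wt line against it and hold no spread between wt lines. With 1 wt line among 5, an exact permutation test has 0.2 as its smallest one-sided p. The fit was also run on simulated data that gave wt the same spread as T120D. That run cannot check whether the wt line varies like the T120D lines.

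Msln, the gene lists and the likeness rule were chosen with earlier results of these data known. Named were the 10 genes most like Msln over the T120D lines and over all lines (1 of the latter is not reported here), all tested genes of its family and processing list, up to 6 called members of each other list (others are named for context), and called or direct chromosome neighbours. Gene order and synonyms came from RefSeq (GRCm38.p6), with 20 neighbours matched. The RefSeq promoter table matched 0 of 1 member (Msln). Alternatives were a pseudocount of 0.1, no filter, a mean of at least 5 RPKM, median scaling, quantile normalization, limma without trend and leaving out each T120D line.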

Additional observations from a re-analysis of the deposited data

Results flagged for a closer look

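Among 62 genes examined, Msln included, 2 had 1 T120D line far from the other 3 (gap to the nearest line, as a share of the range, above Dixon's 95% critical value). Chance gives such a gap in about 1 of 20 groups. Dcn was at 24.5 RPKM in line 6 and at 12 to 13 RPKM in the others. Metrn was at 24.1 RPKM in line 6 and at 33.9 to 35.6 RPKM in the others. For Msln the gap was 0.381 of the range. The labels give no batch for line 6, and no cause was tested.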

How the results depend on the processing

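The Msln difference was 5.0 and kept its direction under every alternative run. With a pseudocount of 0.1 RPKM it was 5.61, and leaving out 1 T120D line gave 4.85 (without line 18) to 5.19 (without line 6). The SD over the T120D lines (0.43 to 0.45) and the share of genes with the Msln order (4.29% to 4.48%) changed little. Which 10 genes were most like it changed more. With a pseudocount of 0.1 RPKM 4 of 10 were shared, with no filter 7, after quantile normalization 8 and after median scaling 10. At a mean of at least 5 RPKM 1 was shared, and at a T120D mean of at least 20 RPKM 0. Those 2 limits themselves remove most or all of the main list, whose T120D means were 1.41 to 5.91 RPKM, so they do not test its stability. Limma without a trend called 816 genes instead of 1317, and leaving out 1 line gave 955 to 1382. With no filter 948 were called, 434 higher and 514 lower, which turns the balance of 769 higher and 548 lower. By list, the fibroblast markers had 5 calls instead of 9 without a trend and 5 to 9 when 1 line was left out, the neighbours of Msln 1 without a trend and 0 without the filter, and the portal fibroblast markers 1 without the filter. Leaving out 1 line gave 1 to 2 calls for GPI anchor assembly and 0 to 1 for the mesothelial markers. The unfiltered fit dropped genes at 0 in every line. The direction reversed for 5 named genes, none of them called: after quantile normalization Polb (0.088), Ccdc132 (0.012), Kctd11 (0.018) and Coa3 (-0.041), and on leaving out a line all 5. Leaving out 1 line gave -0.21 to 0.12 for Polb, -0.067 to 0.24 for Pms1, -0.19 to 0.076 for Ccdc132, -0.22 to 0.084 for Kctd11 and -0.033 to 0.17 for Coa3. No paired analysis was possible because the wt line carries no number that a T120D line shares. Depth limits the wt value, about 9 reads.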
